A study of Mus musculus with 44 samples.

Results

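The 33 genes described here carry out or drive the synthesis of fatty acids and triglycerides in the liver, out of 20105 transcript identifiers that were counted. They were chosen by name, from citrate export to the last acylation of triglyceride, with earlier results of these data known. All 33 had a counted identifier. They supply acetyl-CoA and NADPH (Slc25a1, Acly, Acss2 and Me1), make palmitate (Acaca, Acacb and Fasn), lengthen it (Elovl1, Elovl2, Elovl5, Elovl6, Hsd17b12 and Tecr), desaturate it (Scd1, Scd2, Fads1 and Fads2), activate it (Acsl3 and Acsl5), build triglyceride from it (Gpd1, Gpam, Agpat2, Agpat3, Lpin1, Lpin2, Lpin3, Mogat1, Dgat1 and Dgat2), encode patatin-like lipases induced with it (Pnpla3 and Pnpla5) or regulate it (Srebf1 and Thrsp).

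The libraries hold nuclear RNA of male HEP-INTACT mice, whose hepatocyte nuclei carry a tag by which they can be pulled out of a liver. The labels do not name the promoter that drives the tag. Tagged hepatocyte nuclei and whole liver nuclei were each sequenced from all 22 mice. Mice are named by their stage and number, as in the labels. One study fed the FPC diet for 20 weeks and the other a CDAHFD for 7 weeks, both of which induce non-alcoholic steatohepatitis (NASH), and controls of each study ate a low-fat diet as long. Histology, not chance, divided the NASH livers into mild and advanced disease, the latter with fibrosis. Both studies had 4 control, 4 mild and 3 advanced mice. Age, the composition of the diets and whether mice were fed or fasted when the liver was taken are not given in the sources used here.

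New fatty acids are built in the cytosol from citrate that leaves the mitochondria. Citrate is cleaved to acetyl-CoA, carboxylated to malonyl-CoA, and condensed on fatty acid synthase to palmitate, which elongases and desaturases then reshape. Insulin acting through SREBP-1c, glucose acting through ChREBP, and oxysterols acting through LXR raise these genes together in hepatocytes, while polyunsaturated fatty acids lower them. The fatty acids are joined to glycerol phosphate in steps that end with the diacylglycerol acyltransferases, and the triglyceride is stored in droplets or secreted.

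Library totals ran from 12135408 to 33063251 counts, with a median of 22798944, and were smallest in hepatocyte nuclei of advanced CDAHFD mice (12135408 to 21920437). Levels are given as CPM, the count of a gene scaled to the library total. Log2 fold changes come from edgeR with TMM scaling, which puts the median gene near 0. On total counts, the median gene of hepatocyte nuclei lay 0.40 higher in advanced and 0.24 higher in mild FPC mice than on the TMM scale, and 0.49 and 0.35 higher in advanced and mild CDAHFD mice. A change is therefore a change relative to most genes, and CPM values of diseased mice look higher than the log2 fold changes beside them. Introns were counted with exons for 26 of the 33 genes over their whole body. The body of Elovl1 overlaps that of Cdc20, Acsl3 that of Utp14b and Srebf1 that of Rai1, so reads of these pairs may have been divided or counted for both.

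The markers of hepatocytes were present in each group, with none of 12 at 0, and their summed level in hepatocyte nuclei ran from 12960 to 21100 CPM in FPC controls and from 7644 to 11200 CPM in advanced FPC mice. In the CDAHFD study it was 11610 to 22600 CPM in controls and 9335 to 12160 CPM in advanced mice. Cholangiocyte markers, none of 8 at 0, went in the same nuclei from 110.4 to 125 CPM in FPC controls to 996 to 1687 CPM in advanced mice, and from 88.1 to 147 CPM to 362 to 569 CPM with CDAHFD. Recruited macrophage markers went from 3.76 to 4.89 CPM (Trem2 at 0) to 51.9 to 67.9 CPM with FPC, and from 4.89 to 7.58 CPM to 78.0 to 88.1 CPM with CDAHFD. Summed adipocyte markers stayed at or below 0.248 CPM in hepatocyte nuclei. The part of these shifts in the results was not tested. Both libraries of a mouse deviated together from their groups in 20 of 22 mice. The exceptions were the CDAHFD mice Control_9862 and Control_9867, where each hepatocyte library went with the whole liver library of the other mouse. Both are controls, so comparisons of stages within a fraction hold the same libraries either way.

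In hepatocyte nuclei, most of the genes were lower with CDAHFD, while with FPC as many rose as fell in advanced mice. Of the 32 genes tested in advanced CDAHFD mice, 20 were lower and 4 higher than in controls (24 called, against 59.5% of all genes tested). Of all genes 29.2% were lower and 30.3% higher. The median of the 32 log2 fold changes was -1.25, beside -0.0042 over all genes tested. Mild CDAHFD mice gave 19 lower and 3 higher (22 called, beside 56.3%, 26.7% lower and 29.6% higher), with a median of -0.94. On total counts the splits were 16 lower and 6 higher in advanced and 15 lower and 6 higher in mild mice.

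The FPC diet gave 5 genes higher and 5 lower among the 33 in advanced mice (10 called, beside 46.9% of all genes tested, 26.5% higher and 20.4% lower), with a median of -0.32 beside 0.0039. Elovl5, Scd1, Scd2, Pnpla3 and Pnpla5 rose, and Slc25a1, Acss2, Fasn, Dgat2 and Thrsp fell. Pnpla5 passed the filter for testing only through the NASH libraries, where it is higher. In mild mice 9 were higher and 2 lower (11 called, beside 33.1%, 21.8% higher and 11.3% lower), with a median of 0.26 beside 0.04. The 10 called in advanced FPC mice are a smaller share of the 33 than the share called of all genes. The 11 called in mild FPC mice are a share near that of all genes. On total counts the split was 9 higher and 3 lower in advanced and 12 higher and 2 lower in mild mice, so the even split in advanced FPC mice depends on the scaling. The plot of fold changes shows each gene in both studies.

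**Figure D1:**
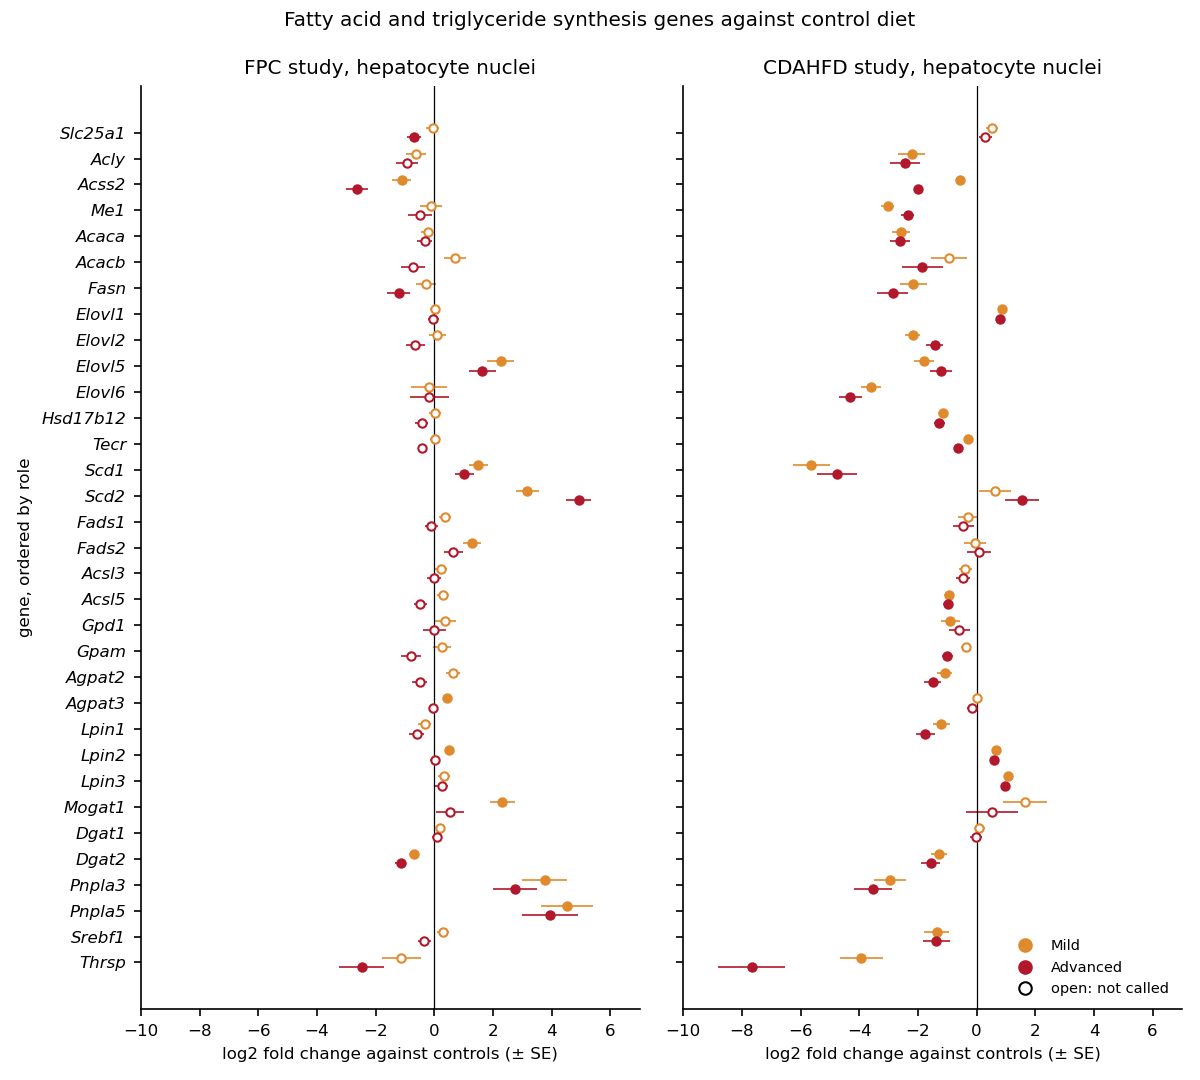
Log2 fold change against controls (x axis, ± SE) of the 33 genes (y axis, ordered by role) in hepatocyte nuclei of mild and advanced mice of the FPC study (left) and the CDAHFD study (right); filled points have an adjusted p under 0.05 and open points do not. In advanced CDAHFD mice 20 of 32 genes were called lower, while with FPC 5 were called higher and 5 lower; Pnpla5 was not tested with CDAHFD.

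Both studies called 8 genes in advanced mice. Acss2, Dgat2, Fasn and Thrsp were lower in both, Scd2 was higher in both, and Elovl5, Pnpla3 and Scd1 were higher with FPC and lower with CDAHFD. Another 13 genes were called lower with CDAHFD alone, 3 higher with CDAHFD alone (Elovl1, Lpin2 and Lpin3), and Slc25a1 lower with FPC alone. Acsl3, Agpat3, Dgat1, Fads1, Fads2, Gpd1 and Mogat1 were called in neither. These lists do not test the difference between the studies, which is given further on.

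Promoter sequence from RefSeq (GRCm38.p6) was matched for 27 of the 33 genes, and for 26 it began within 250 bases of the counted start. The bases before the start are shown for Pnpla3 and Elovl5, which went opposite ways in the studies, and for Fasn, Thrsp and Elovl6, which had some of the largest falls with CDAHFD. Capitals mark the E-box CACGTG, the core of the sites that ChREBP and upstream stimulatory factors bind, and the CCAAT box, read ATTGG on the other strand, the site of NF-Y, a partner of SREBP-1c.
Pnpla3, chr15:84167566-84167815, plus strand: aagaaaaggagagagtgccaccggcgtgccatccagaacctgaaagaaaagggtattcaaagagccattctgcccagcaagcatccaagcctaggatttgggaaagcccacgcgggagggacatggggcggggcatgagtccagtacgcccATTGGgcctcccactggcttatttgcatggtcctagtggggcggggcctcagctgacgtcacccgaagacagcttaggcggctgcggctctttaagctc
Elovl5, chr9:77917115-77917364, plus strand: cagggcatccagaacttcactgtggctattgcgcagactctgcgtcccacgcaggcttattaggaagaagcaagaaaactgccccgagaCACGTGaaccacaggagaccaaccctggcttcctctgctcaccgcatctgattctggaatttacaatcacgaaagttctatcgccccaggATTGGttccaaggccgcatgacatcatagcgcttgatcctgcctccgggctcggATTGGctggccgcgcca
Fasn, chr11:120824548-120824797, minus strand: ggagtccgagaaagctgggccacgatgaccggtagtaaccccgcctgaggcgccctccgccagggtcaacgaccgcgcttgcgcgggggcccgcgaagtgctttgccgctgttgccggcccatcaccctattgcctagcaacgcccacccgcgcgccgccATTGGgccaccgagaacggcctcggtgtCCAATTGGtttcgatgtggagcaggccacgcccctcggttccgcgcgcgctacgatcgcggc
Thrsp, chr7:97417551-97417800, minus strand: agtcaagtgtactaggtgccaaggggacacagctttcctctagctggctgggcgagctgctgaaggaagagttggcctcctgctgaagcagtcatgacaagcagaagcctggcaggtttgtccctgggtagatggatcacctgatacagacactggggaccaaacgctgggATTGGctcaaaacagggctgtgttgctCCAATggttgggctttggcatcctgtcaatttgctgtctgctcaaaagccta
Elovl6, chr3:129532136-129532385, plus strand: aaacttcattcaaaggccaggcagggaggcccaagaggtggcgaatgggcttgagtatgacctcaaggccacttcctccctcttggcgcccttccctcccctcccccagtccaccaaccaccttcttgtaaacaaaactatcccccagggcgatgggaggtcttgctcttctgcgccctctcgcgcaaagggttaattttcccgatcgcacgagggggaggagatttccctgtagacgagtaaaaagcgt
Elovl5 holds 1 E-box and 2 CCAAT boxes, Pnpla3 1 CCAAT box, Thrsp 2 and Fasn 3, of which a pair overlaps on opposite strands. Neither motif is in the Elovl6 window. Over windows of 300 bases (250 before and 50 after the start, both strands), a CCAAT box lies in 15 of the 26 promoters of these genes (57.7%) and in 37.4% of 32817 mouse promoters, and the E-box in 4 (15.4%) and 7.15%. GGGCGG, the GC box of Sp factors, lies in 16 (61.5%) and 35.6%, and may lie beside a CCAAT box in the same window. For these genes 1 promoter each was taken, the nearest to the counted start, while the 32817 hold every distinct promoter window. The sets were not matched, and the differences in share were not tested. The sterol response element TCACNCCAC was found in 0 of the 26 and in 408 of all promoters, which says only that these letters are not in these windows. The E-box genes are Slc25a1, Elovl5, Lpin3 and Pnpla5.

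Among the genes of acetyl-CoA supply, Acss2 fell in both studies, and Acly fell in CDAHFD mice as well. Acss2, the cytosolic acetyl-CoA synthetase that turns acetate into acetyl-CoA (positions here and below in mm10, chr2:155518043-155562743), stood at 578, 484, 709 and 393 CPM in FPC controls, 235, 335, 319 and 295 in mild and 174, 48.6 and 111 in advanced mice. No range touches another: each mild mouse lay below each control, and each advanced mouse below each mild one. The log2 fold change was -1.11 ± 0.32 (SE, adjusted p = 0.0188) in mild and -2.64 ± 0.38 (SE, adjusted p = 9.79e-05) in advanced FPC mice. In mild mice the call was lost without Control_6952 (-0.95, adjusted p = 0.0574) or Mild_6825 (-1.03, adjusted p = 0.0512). CDAHFD controls had 112, 153, 143 and 97.2 CPM, mild mice 108, 93.2, 102 and 130.5 and advanced mice 43, 47.2 and 44.2. Only the advanced mice stood apart, in a narrow band below the others. The changes were -0.56 ± 0.14 (SE, adjusted p = 0.00469) in mild mice, lost on total counts (-0.22, adjusted p = 0.226), and -1.98 ± 0.16 (SE, adjusted p = 1.56e-06) in advanced mice. Acss2 was also the 1 gene of the 32 called between advanced and mild CDAHFD mice (beside 2.82% of all genes), at -1.42 ± 0.16 (SE, adjusted p = 0.000979). Total counts added Me1, higher in advanced mice (0.83, adjusted p = 0.0404).

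Acly, ATP citrate lyase, which cleaves exported citrate, had 209, 434, 255 and 1054 CPM in CDAHFD controls. Mild mice had 126, 135, 118 and 161 CPM and advanced mice 108, 158 and 119. All 7 NASH mice lay below all 4 controls, among which Control_10113 was highest. Acly changed by -2.22 ± 0.45 (SE, adjusted p = 0.0017) in mild (without Control_10113, -1.47, adjusted p = 0.000287) and -2.44 ± 0.51 (SE, adjusted p = 0.00172) in advanced mice. FPC controls had 416, 480.4, 374 and 416 CPM, mild mice 352, 372, 281 and 285 and advanced mice 391, 98.8 and 371, with Advanced_6880 far below the other advanced mice. Mild mice were all below controls, but neither stage was called, at -0.63 in mild mice. The advanced change was -0.93 ± 0.37 (SE, adjusted p = 0.0563). Slc25a1, the mitochondrial citrate carrier, was lower in advanced FPC mice, at -0.69 ± 0.23 (SE, adjusted p = 0.0275), a call that was lost without Control_6852 (adjusted p = 0.0786), Advanced_6826 (adjusted p = 0.0933) or Advanced_6880 (adjusted p = 0.0945) and on total counts (-0.29, adjusted p = 0.349). With CDAHFD its change was 0.29 ± 0.22 (SE, adjusted p = 0.284) in advanced and 0.52 ± 0.21 (SE, adjusted p = 0.0501) in mild mice, neither called. Total counts called both (0.78, adjusted p = 0.0127, and 0.86, adjusted p = 0.00586).

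Me1, the cytosolic malic enzyme that supplies NADPH, fell with CDAHFD and was not called with FPC. It stood at 427, 447, 285 and 535 CPM in CDAHFD controls, at 63.3, 77.8, 67.2 and 55.5 in mild and at 134, 126 and 92.6 in advanced mice. The 3 ranges do not overlap, and the mild mice were lowest. The log2 fold change was -3.04 ± 0.21 (SE, adjusted p = 1.05e-06) in mild and -2.35 ± 0.23 (SE, adjusted p = 5.6e-06) in advanced mice. FPC controls had 1153, 807, 423 and 439 CPM, mild mice 785, 812, 766 and 681 and advanced mice 985, 271 and 660.5. These overlap, and the advanced change of -0.49 ± 0.41 (SE, adjusted p = 0.357) was not called.

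All 3 genes of palmitate synthesis were called lower in advanced CDAHFD mice (beside 29.2% of all genes). The call of Acacb held in only 6 of 13 alternatives and was lost without Control_9862. Fasn, fatty acid synthase (chr11:120805958-120824547), had 205, 468, 355 and 1069 CPM in controls, 134, 150.2, 159 and 159.5 in mild and 67.9, 161 and 82.2 in advanced mice. Each NASH mouse was below each control, and the controls themselves spanned a wide range with Control_10113 on top. Its changes were -2.16 ± 0.45 (SE, adjusted p = 0.00209) in mild and -2.86 ± 0.52 (SE, adjusted p = 0.000749) in advanced mice. FPC values were 434, 585, 336 and 364 CPM in controls, 334, 637, 309 and 397 in mild and 270.3, 97.9 and 354 in advanced mice. The advanced FPC range crossed that of the controls, at its upper end, and Advanced_6880 was lowest. The advanced change was -1.22 ± 0.39 (SE, adjusted p = 0.023), lost without Control_6852 (-1.04, adjusted p = 0.0585) and on total counts (-0.84, adjusted p = 0.0821), and the mild change -0.28 ± 0.35 (SE, adjusted p = 0.586) was not called.

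Acaca encodes the cytosolic acetyl-CoA carboxylase that commits acetyl-CoA to synthesis. Its CDAHFD values were 1018, 1189, 771 and 2262 CPM in controls, 254, 272, 262 and 339.7 in mild and 350.1, 268 and 296 in advanced mice. No NASH mouse came near a control. The changes were -2.58 ± 0.31 (SE, adjusted p = 3.99e-05) and -2.61 ± 0.34 (SE, adjusted p = 5.86e-05). With FPC the values were 854, 839.7, 743 and 864 CPM in controls, 1134, 687, 700.5 and 847 in mild and 1060, 527 and 999 in advanced mice. These groups overlap and neither change was called, at -0.21 and -0.32. Acacb, the carboxylase at the mitochondrial surface whose malonyl-CoA restrains fatty acid oxidation, had 341, 61.8, 81.3 and 40 CPM in CDAHFD controls, 54.8, 69.4, 98.5 and 126 in mild and 26.4, 56.6 and 71.1 in advanced mice. Control_9862 stood far above all others and the remaining values overlapped. The advanced change of -1.85 ± 0.71 (SE, adjusted p = 0.0421) shrank to -0.74 (adjusted p = 0.122) without Control_9862, and was also lost without Advanced_9845 (-1.55, adjusted p = 0.125), Advanced_9896 (-1.91, adjusted p = 0.0909) or Advanced_10104 (-2.18, adjusted p = 0.0542). It was not called on total counts (-1.35, adjusted p = 0.105), without the filter on low counts (adjusted p = 0.0767) or from both groups alone (adjusted p = 0.085).

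In the FPC study Acacb had 307, 380.1, 113 and 161 CPM in controls, 683, 335, 429 and 379 in mild and 204, 130.1 and 234 in advanced mice. It was not called against controls in either stage (0.71 and -0.72). Between the stages it was lower in advanced mice, at -1.43 ± 0.41 (SE, adjusted p = 0.0281). That call was lost without Mild_6825 (-1.14, adjusted p = 0.0636) or Mild_6887 (adjusted p = 0.0516) and without each of the advanced mice Advanced_6826, Advanced_6880 and Advanced_6904 (-1.54, -1.19 and -1.58, adjusted p = 0.0542, 0.12 and 0.0535).

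Of the 6 elongation genes, 5 fell and 1 rose in advanced CDAHFD mice (beside 29.2% and 30.3% of all genes). Elovl5 alone was called with FPC (beside 46.9% of all genes in advanced and 33.1% in mild mice). Elovl6, which lengthens palmitate to stearate (chr3:129532386-129638493), had 551, 933, 544 and 1088 CPM in CDAHFD controls. It fell to 60.3, 57.1, 93.6 and 117 CPM in mild and 45, 47.5 and 73.9 in advanced mice. Every NASH mouse lay far under the lowest control. The changes were -3.60 ± 0.33 (SE, adjusted p = 8.74e-06) and -4.31 ± 0.39 (SE, adjusted p = 4.6e-06). With FPC it stood at 517, 505, 297 and 408 CPM in controls, 1074, 154, 246 and 293 in mild and 769.9, 183 and 529.6 in advanced mice. Those groups overlap, Mild_6825 was far above its group, and the changes of -0.18 and -0.17 were not called.

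Elovl5 acts mainly on polyunsaturated fatty acids (chr9:77917365-77984519). Its FPC values were 192, 292, 84.8 and 244 CPM in controls, 980.3, 1165, 1171 and 1325 in mild and 1159, 281 and 1034 in advanced mice. All mild mice were above all controls, and so were advanced mice except Advanced_6880, which lay inside the control range. The changes were 2.26 ± 0.45 (SE, adjusted p = 0.00232) in mild and 1.64 ± 0.46 (SE, adjusted p = 0.0121) in advanced mice, the latter lost without Advanced_6826 (1.25, adjusted p = 0.0598). CDAHFD took it the other way, from 458, 170.5, 414 and 282 CPM in controls to 89.1, 149.5, 119 and 125 in mild and 298, 122 and 177 in advanced mice. Mild mice lay below all controls and advanced mice overlapped them. The changes were -1.81 ± 0.34 (SE, adjusted p = 0.000984) and -1.22 ± 0.37 (SE, adjusted p = 0.0139), and the latter was lost without Advanced_9896 (-0.96, adjusted p = 0.0575) and on total counts (-0.73, adjusted p = 0.0912).

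Elovl2 elongates the longest polyunsaturated chains. With CDAHFD it went from 505, 468, 535 and 458 CPM in controls to 162, 162, 111 and 114 in mild and 388, 155 and 220.1 in advanced mice. NASH mice were below controls throughout, with mild mice lower than 2 of the 3 advanced ones. The changes were -2.18 ± 0.26 (SE, adjusted p = 3.83e-05) and -1.43 ± 0.28 (SE, adjusted p = 0.000911). FPC controls had 343, 514, 352 and 447 CPM, mild mice 323, 673, 614 and 514 and advanced mice 424, 176 and 436, with no call. Hsd17b12, the ketoacyl-CoA reductase of the elongation cycle, had 312, 229, 198 and 247 CPM in CDAHFD controls, 120, 131, 174 and 149 in mild and 119.8, 148 and 163 in advanced mice, again without overlap. It changed by -1.13 ± 0.17 (SE, adjusted p = 0.00017) and -1.28 ± 0.19 (SE, adjusted p = 0.000113). In FPC mice it read 228, 260.4, 195 and 257 CPM in controls, 359.5, 216, 286 and 259 in mild and 291, 174 and 223 in advanced mice, and was not called.

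Tecr, the enoyl-CoA reductase that closes the cycle, fell by a small amount with CDAHFD, at -0.29 ± 0.10 (SE, adjusted p = 0.0307) and -0.65 ± 0.11 (SE, adjusted p = 0.000378). Both calls were lost on total counts, where the mild value turned to 0.06 (adjusted p = 0.66) and the advanced one was -0.15 (adjusted p = 0.272). The mild call was also lost without Control_9867 (adjusted p = 0.0932), Mild_9852 (adjusted p = 0.0792) or Mild_9853 (adjusted p = 0.0762). Elovl1, which makes very long saturated chains, was the exception among the 6 genes of this role and rose with CDAHFD by 0.87 ± 0.14 (SE, adjusted p = 0.000304) in mild and 0.80 ± 0.15 (SE, adjusted p = 7e-04) in advanced mice. All 7 NASH mice had 16.4 to 24.6 CPM and the 4 controls 6.87 to 8.86.

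The desaturases Scd1 and Scd2 rose with FPC, and with CDAHFD Scd1 fell. Scd1, the main stearoyl-CoA desaturase of liver, which makes oleate (chr19:44394450-44407709), had 268, 216, 168 and 339 CPM in FPC controls. It reached 682, 1051, 829 and 797 CPM in mild and 855, 317 and 814 in advanced mice. Mild mice lay wholly above controls, and so did 2 of the 3 advanced mice, while Advanced_6880 fell inside the control range. The changes were 1.51 ± 0.32 (SE, adjusted p = 0.00301) and 1.03 ± 0.33 (SE, adjusted p = 0.0234). The advanced call was lost without Control_6852 (0.96, adjusted p = 0.0603) or Control_6952 (0.88, adjusted p = 0.0612) or Advanced_6826 (0.74, adjusted p = 0.114) or Advanced_6904 (0.88, adjusted p = 0.0857), and from both groups alone (adjusted p = 0.0526).

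With CDAHFD, Scd1 went from 133, 60.5, 99.9 and 234 CPM in controls to 2.91, 2.17, 3.11 and 5.61 in mild and 2.72, 14.2 and 4.42 in advanced mice. All 7 NASH mice stood below the lowest control, and Advanced_9896 was highest among them. The changes were -5.64 ± 0.63 (SE, adjusted p = 4.01e-05) and -4.76 ± 0.68 (SE, adjusted p = 0.000151). Per kilobase of counted length, Scd1 was the highest of the 33 genes in advanced FPC mice, at 49.9 ± 22.6 CPM (SD, n = 3). In FPC controls it ranked 2nd after Fasn, at 18.7 ± 5.52 beside 23.1 ± 5.98 CPM per kilobase (SD, n = 4), a gap within their spread. It ranked 6th in CDAHFD controls, at 9.95 ± 5.62 CPM per kilobase (SD, n = 4), and 27th in advanced CDAHFD mice, at 0.536 ± 0.466 (SD, n = 3).

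Scd2, the desaturase that predominates outside the adult liver (chr19:44293676-44306862), was near the floor in controls and was called higher in both FPC stages and in advanced CDAHFD mice. FPC controls had 1.38, 0.53, 0.947 and 1.16 CPM, mild mice 7.82, 13.5, 10.2 and 12.2 and advanced mice 27.2, 23.3 and 71.9. The 3 groups form separate steps, with Advanced_6904 on top. The changes were 3.18 ± 0.40 (SE, adjusted p = 7.74e-05) and 4.92 ± 0.42 (SE, adjusted p = 1.14e-06), and advanced exceeded mild by 1.74 ± 0.36 (SE, adjusted p = 0.00443), or 1.09, adjusted p = 0.0195 without Advanced_6904. CDAHFD controls had 1.16, 0.496, 0.79 and 2.14 CPM, mild mice 1.05, 1.68, 3.6 and 2.97 and advanced mice 1.71, 7.58 and 5.25. Here the groups overlap. The advanced change was 1.55 ± 0.58 (SE, adjusted p = 0.0365), lost without Control_9862 (1.54, adjusted p = 0.0652), Control_9867 (1.28, adjusted p = 0.084) or Control_10110 (1.41, adjusted p = 0.0826) or Advanced_9896 (1.12, adjusted p = 0.161) or Advanced_10104 (1.47, adjusted p = 0.0893), and the mild change 0.63 ± 0.56 (SE, adjusted p = 0.351) was not called.

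Cholangiocyte and macrophage markers were higher in the same hepatocyte libraries, as given above. The mean level of Scd2 in hepatocyte nuclei was 34.6%, 51% and 79% of that in whole liver nuclei of FPC controls, mild and advanced mice, where the summed markers of endothelial cells stood at 8.9%, 17.4% and 10.6%, those of recruited macrophages at 24.7%, 22.3% and 22.3% and those of cholangiocytes at 84.6%, 95.6% and 117%. With CDAHFD the Scd2 figures were 46%, 24.5% and 48.3%, beside 9.32%, 11.1% and 11% for endothelial cells, 24.3%, 8.73% and 10.1% for recruited macrophages and 80.7%, 74.6% and 78.9% for cholangiocytes. Stellate and fibroblast markers stood at 23.4%, 22.1% and 19.9% with FPC and 34.9%, 38.3% and 31.6% with CDAHFD. Kupffer cell markers stood at 8.26%, 15.5% and 13.2%, and at 5.32%, 9.5% and 12.1%. Cholangiocyte markers thus stood above Scd2 in each group, and stellate and fibroblast markers in mild CDAHFD mice. The part of other cells' RNA in the Scd2 result was not tested.

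Fads2, the desaturase that begins polyunsaturated synthesis, was higher in mild FPC mice, by 1.28 ± 0.31 (SE, adjusted p = 0.00645), with 1121 to 2202 CPM beside 351 to 808 in controls. Its advanced change of 0.64 ± 0.33 (SE, adjusted p = 0.123) was not called, but was on total counts (1.03, adjusted p = 0.0177). Fads1, which acts next on those chains, was not called in any stage of either study, with changes from -0.45 to 0.37, though total counts called it higher in mild FPC mice (0.60, adjusted p = 0.0379). With CDAHFD the Fads2 changes were not called, at -0.06 and 0.08, and per kilobase of counted length Fads2 was the highest of the 33 genes in advanced CDAHFD mice, at 27.1 ± 6.11 CPM (SD, n = 3).

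**Figure D2:**
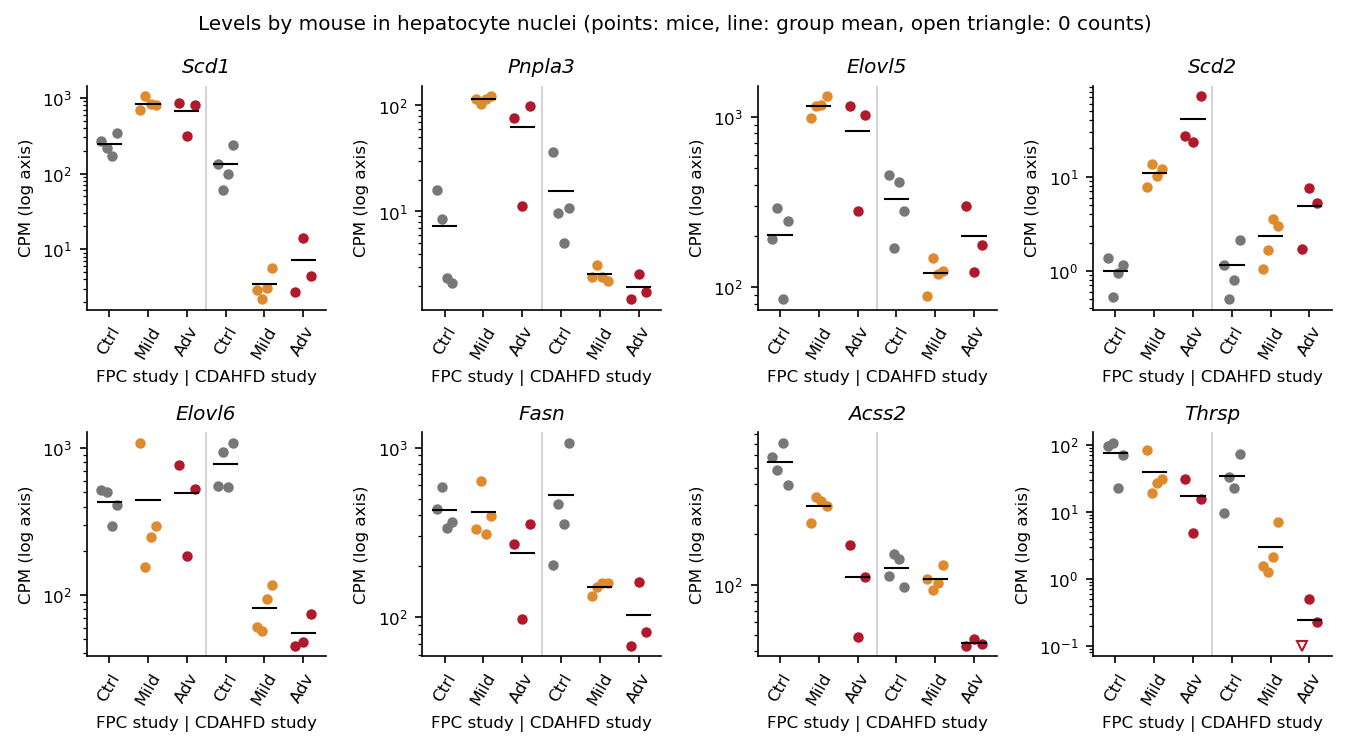
CPM on a log axis (y) of 8 genes in hepatocyte nuclei of each mouse, by group (x: control, mild and advanced of the FPC study, then of the CDAHFD study); points are mice, lines are group means and the open triangle is a library with 0 counts. Scd1, Pnpla3 and Elovl5 lie higher in mild FPC mice and lower in mild CDAHFD mice than in the controls of the same study, and Acss2 is lowest in advanced mice of both.

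Of the 2 acyl-CoA synthetases, 1 fell with CDAHFD (beside 29.2% of all genes in advanced and 26.7% in mild mice). Neither was called against controls with FPC (beside 46.9% and 33.1%). Acsl5, a long-chain acyl-CoA synthetase of endoplasmic reticulum and mitochondria, was lower with CDAHFD, at -0.94 ± 0.16 (SE, adjusted p = 0.000364) in mild and -0.97 ± 0.17 (SE, adjusted p = 0.000479) in advanced mice. With FPC it had 239, 240.1, 259.5 and 269 CPM in controls and 317, 417, 395 and 339.9 in mild mice, which did not overlap. That change of 0.30 ± 0.21 (SE, adjusted p = 0.299) was not called, but was on total counts (0.54, adjusted p = 0.039). Acsl3, the synthetase of growing lipid droplets, was not called in either study, at -0.46 in advanced CDAHFD and -0.02 in advanced FPC mice.

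In the glycerol phosphate pathway 3 of 7 genes were lower and 2 higher in advanced CDAHFD mice (beside 29.2% and 30.3% of all genes). The share called higher was near that of all genes. Gpam, the mitochondrial glycerol-phosphate acyltransferase that starts it, was lower in advanced mice, at -1.0 ± 0.18 (SE, adjusted p = 0.000485), and at -0.37 not called in mild mice. Agpat2, which adds the next acyl chain, had 42.5, 59.1, 54.5 and 84.3 CPM in controls, 29.6, 36.9, 45.2 and 32.8 in mild and 18, 40.3 and 32.6 in advanced mice. Only Mild_9894 reached above the lowest control. Agpat2 changed by -1.09 ± 0.26 (SE, adjusted p = 0.00366) and -1.49 ± 0.29 (SE, adjusted p = 0.000864). With FPC it had 64.9, 43.6, 33.6 and 47.1 CPM in controls, 96.3, 100.3, 86.8 and 60.3 in mild and 33.4, 36 and 63.2 in advanced mice. Neither stage was called against controls, although total counts called the mild change (0.86, adjusted p = 0.0158). Advanced mice were lower than mild ones, at -1.13 ± 0.27 (SE, adjusted p = 0.00965), lost without Advanced_6880 (-0.97, adjusted p = 0.0539).

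The lipins dephosphorylate phosphatidate to diacylglycerol, and they parted ways. Lpin1 had 235, 319, 272 and 537 CPM in CDAHFD controls, 139.9, 167, 182 and 273 in mild and 114, 127 and 191 in advanced mice. Advanced mice were all below controls, while Mild_10102 overlapped them. The changes were -1.20 ± 0.30 (SE, adjusted p = 0.00486) and -1.74 ± 0.33 (SE, adjusted p = 0.000845). FPC controls had 229, 226, 231 and 136 CPM, mild mice 213, 191, 158 and 205 and advanced mice 250.3, 115 and 162, with no call. Lpin2 and Lpin3 rose with CDAHFD instead, Lpin2 by 0.60 ± 0.16 (SE, adjusted p = 0.00663) and Lpin3 by 0.98 ± 0.15 (SE, adjusted p = 0.000178) in advanced mice and by 0.67 and 1.07 in mild mice. Lpin3 had 25.1 to 32.5 CPM in all 7 NASH mice and 7.56 to 11.9 in the 4 controls. In advanced FPC mice total counts called Lpin2 and Lpin3 higher (0.41, adjusted p = 0.04, and 0.67, adjusted p = 0.0399).

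Smaller changes completed this role. Lpin2 was higher in mild FPC mice by 0.52 ± 0.16 (SE, adjusted p = 0.0245), lost without Control_6952 or Control_6953 or Mild_6825 or Mild_6888 (adjusted p = 0.0673, 0.0625, 0.0615 and 0.0534). Agpat3, which favours polyunsaturated acyl chains, was higher in mild FPC mice by 0.44 ± 0.13 (SE, adjusted p = 0.017), lost without Control_6952 (adjusted p = 0.0577) or Mild_6886 (adjusted p = 0.0538). Gpd1, which makes glycerol phosphate, was lower in mild CDAHFD mice, at -0.89 ± 0.34 (SE, adjusted p = 0.0399). That call was lost without Control_9867 (-0.62, adjusted p = 0.129) or Control_10110 (adjusted p = 0.0971), without Mild_9852, Mild_9894 or Mild_10102 (adjusted p = 0.0783, 0.0592 and 0.0936), without the filter on low counts (adjusted p = 0.058) and on total counts (-0.56, adjusted p = 0.187).

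At the last acylation, Dgat2 fell in both studies and Dgat1 was called in neither. Dgat2, the diacylglycerol acyltransferase tied to newly made fatty acids, had 258, 373, 212 and 313 CPM in FPC controls, 206, 184, 243 and 207 in mild and 168, 167 and 185 in advanced mice. All advanced mice were below all controls, and mild mice overlapped the lowest control. The changes were -0.71 ± 0.17 (SE, adjusted p = 0.00603) and -1.14 ± 0.19 (SE, adjusted p = 0.000243). CDAHFD controls had 209, 331, 410.3 and 535 CPM, mild mice 181, 197, 148 and 249 and advanced mice 118, 199.7 and 212, with Control_9862 inside the NASH range. The changes were -1.29 ± 0.28 (SE, adjusted p = 0.00244) and -1.57 ± 0.32 (SE, adjusted p = 0.00119). Dgat1, the acyltransferase that re-esterifies incoming fatty acids, had log2 fold changes of 0.09 and -0.02 in advanced FPC and CDAHFD mice. Total counts called both higher (0.50, adjusted p = 0.0471, and 0.48, adjusted p = 0.0409), and the mild CDAHFD change as well (0.44, adjusted p = 0.0457).

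Mogat1, which acylates monoacylglycerol and is low in normal liver, was higher in mild FPC mice by 2.33 ± 0.44 (SE, adjusted p = 0.00126). They had 5.2, 6.44, 10.6 and 7.78 CPM beside 2.6, 1.11, 0.947 and 0.429 in controls and 3.1, 1.37 and 2.61 in advanced mice. Mild mice stood above both other groups, and advanced were lower than mild, at -1.79 ± 0.46 (SE, adjusted p = 0.0156), lost without Mild_6887 (-1.56, adjusted p = 0.0507) or Advanced_6880 (-1.49, adjusted p = 0.0702). With CDAHFD the changes of 1.64 ± 0.75 (SE, adjusted p = 0.0813) and 0.54 ± 0.88 (SE, adjusted p = 0.619) were not called, at levels of at most 1.49 CPM. Total counts called the mild one (1.98, adjusted p = 0.0408). With CDAHFD Mogat1 passed the filter for testing only through NASH libraries, where it is higher, so that call adds no support.

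Of the patatin-like lipases, both rose with FPC (beside 26.5% of all genes in advanced and 21.8% in mild mice), and Pnpla3 fell with CDAHFD. Pnpla3, a lipid droplet protein whose gene is a target of SREBP-1c (chr15:84167816-84189521), had 16.1, 8.44, 2.37 and 2.1 CPM in FPC controls, 115, 104, 114 and 122 in mild and 75.6, 11.4 and 99.8 in advanced mice. Mild mice held a tight band above all controls, and Advanced_6880 alone overlapped the controls. The changes were 3.76 ± 0.75 (SE, adjusted p = 0.00325) and 2.75 ± 0.75 (SE, adjusted p = 0.0121). CDAHFD controls had 36.6, 9.64, 5.08 and 10.7 CPM, mild mice 2.42, 3.15, 2.42 and 2.23 and advanced mice 1.48, 2.56 and 1.73. All 7 NASH mice were below the lowest control. The changes were -2.96 ± 0.54 (SE, adjusted p = 0.000759) and -3.53 ± 0.63 (SE, adjusted p = 0.000585).

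Pnpla5, a neighbouring gene of the same family (chr15:84112621-84123175), was counted only rarely. Hepatocyte nuclei of FPC controls gave 2 counts over 4 libraries, mild mice 66 and advanced mice 36. Scaled to library totals this was 34.1-fold (95% interval 9.07 to 287) and 24.3-fold (6.25 to 208) higher, with intervals that cover counting error only. By mouse the levels were 0.0394, 0, 0 and 0.0429 CPM in controls, 1.12, 0.344, 0.912 and 0.313 in mild and 0.392, 0.21 and 0.966 in advanced mice, without overlap. The edgeR test called both changes (adjusted p = 0.0017 and 0.00437), and their fitted sizes depend on the prior count. Pnpla5 passed the filter for that test only through the NASH libraries, so these calls add no support to the counts. The CDAHFD study was under the filter for testing. Its controls had 0.359, 0.0709, 0 and 0.115 CPM, 14 counts in all, and no NASH library had a count. Against a floor of 3 counts over the group, mild mice were at least 3.68-fold and advanced mice at least 2.25-fold lower. Control_9862 held 9 of those 14 control counts and the other controls 2, 0 and 3. These fold values thus rest mostly on 1 mouse and do not include the spread between mice.

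Among the regulators, Thrsp fell with both diets and Srebf1 with CDAHFD. Thrsp, a nuclear and cytosolic protein that promotes lipogenesis (chr7:97412957-97417510), had 9.57, 32.9, 22.9 and 73.6 CPM in CDAHFD controls, 1.57, 1.25, 2.09 and 7.17 in mild and 0, 0.494 and 0.228 in advanced mice. The 3 advanced libraries held 0, 6 and 5 counts. The groups are separate steps, and Mild_10102 lay above its group. The changes were -3.93 ± 0.73 (SE, adjusted p = 0.00109) and -7.67 ± 1.14 (SE, adjusted p = 0.000197), the latter resting on those few counts. FPC values were 96.8, 108, 22.7 and 71.1 CPM in controls, 82.7, 18.9, 27.2 and 30.9 in mild and 30.6, 4.79 and 15.6 in advanced mice. Mild_6825 lay above 2 of the 4 controls, the highest advanced mouse above the lowest control, and Advanced_6880 was lowest. The advanced change of -2.48 ± 0.77 (SE, adjusted p = 0.0229) was lost without Advanced_6880 (-2.03, adjusted p = 0.0611) or Advanced_6904 (-2.39, adjusted p = 0.073), and the mild change -1.12 ± 0.66 (SE, adjusted p = 0.228) was not called.

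Srebf1, which encodes SREBP-1 (chr11:60199089-60220604), had 111, 312, 329.9 and 604 CPM in CDAHFD controls, 154, 179, 133 and 208 in mild and 107, 250.4 and 201 in advanced mice. Control_9862 was close to the lowest NASH mouse and the others were above. The changes were -1.36 ± 0.42 (SE, adjusted p = 0.0176) and -1.38 ± 0.47 (SE, adjusted p = 0.0255). Without Control_10113 both were lost (-0.89, adjusted p = 0.0578, and -0.90, adjusted p = 0.0699), as they were on total counts (-1.01, adjusted p = 0.0556, and -0.87, adjusted p = 0.117). The advanced call was also lost without Advanced_9845 (-1.11, adjusted p = 0.0887) or Advanced_10104 (-1.45, adjusted p = 0.055) and from both groups alone (adjusted p = 0.0605). FPC values were 245, 283, 219.6 and 202 CPM in controls, 262, 484, 326 and 310.1 in mild and 181, 236 and 330.2 in advanced mice. Neither FPC change was called (0.30 and -0.34), and the latter was 0.07 on total counts.

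Whether the studies differed was tested on the 22 hepatocyte libraries together, by subtracting the FPC change from that with CDAHFD. The 7 and 20 weeks of feeding differ too, and diet and duration cannot be told apart. In advanced mice 11 of 33 genes differed (beside 11.9% of all genes tested), 9 of them lower with CDAHFD (beside 7.36%). In mild mice 15 differed (beside 12.2%), 13 of them lower (beside 6.64%). The counts of both stages include Pnpla5, which had no count in any CDAHFD NASH library. It passed the filter of this joint fit only through FPC NASH libraries, so its calls add no support for a difference. The largest among genes with counts in each group were Pnpla3 at -6.23 ± 1.11 (SE, adjusted p = 0.00261) and Scd1 at -5.74 ± 0.75 (SE, adjusted p = 0.000292) in advanced mice, and at -6.64 ± 1.0 (SE, adjusted p = 0.000872) and -7.07 ± 0.71 (SE, adjusted p = 2.19e-05) in mild mice.

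Elovl6, Elovl5 and Acaca also differed in both stages, at -4.08 ± 0.82 (SE, adjusted p = 0.00501), -2.80 ± 0.65 (SE, adjusted p = 0.0107) and -2.23 ± 0.43 (SE, adjusted p = 0.00385) in advanced mice. Thrsp differed in advanced mice at -5.14 ± 1.49 (SE, adjusted p = 0.0321), a call that was lost without FPC Advanced_6826 or Advanced_6904, CDAHFD Control_10113, or CDAHFD Advanced_9845, Advanced_9896 or Advanced_10104 (adjusted p from 0.05 to 0.0915). Me1 differed by -1.80 ± 0.50 (SE, adjusted p = 0.0261) in advanced and -2.84 ± 0.47 (SE, adjusted p = 0.00136) in mild mice, and the advanced call was lost without FPC Advanced_6826 (-1.27, adjusted p = 0.102) or CDAHFD Advanced_9896 or Advanced_10104 (adjusted p = 0.0545 and 0.0555). Scd2, which rose in both studies in advanced mice, rose less with CDAHFD, with a difference of -3.32 ± 0.75 (SE, adjusted p = 0.00915). Fasn, Acly and Dgat2, at -1.58 ± 0.66 (SE, adjusted p = 0.118), -1.45 ± 0.64 (SE, adjusted p = 0.14) and -0.38 ± 0.37 (SE, adjusted p = 0.525) in advanced mice, were not called. Without CDAHFD Advanced_9896, 7 genes were called in advanced mice in place of 11.

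**Figure D3:**
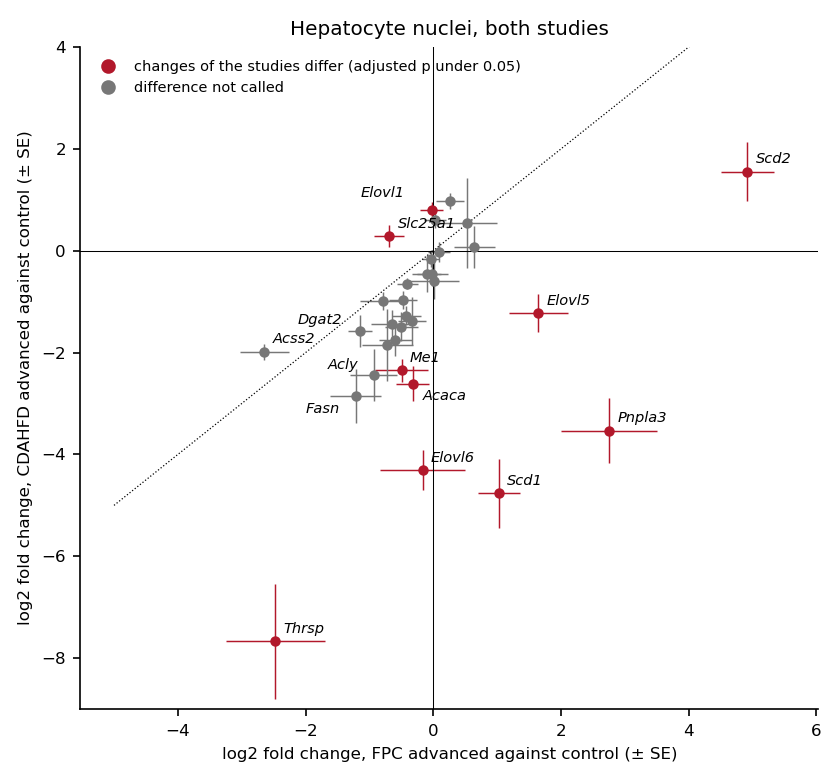
Log2 fold change of advanced against control mice in hepatocyte nuclei, FPC study (x axis) against CDAHFD study (y axis), each ± SE; each point is 1 of the 32 genes tested in both, red where the 2 changes differ with an adjusted p under 0.05, and the dotted line marks equal changes. Scd1, Pnpla3 and Elovl5 lie to the right of 0 and below 0, Scd2 above 0 on both axes, and Acss2, Fasn and Thrsp below 0 on both.

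Advanced and mild mice of the FPC study differed in 7 of the 33 genes, 6 of them lower in advanced mice (beside 20.2% and 7.49% of all genes). These were Acss2, Acacb, Acsl5, Agpat2, Agpat3 and Mogat1, and Scd2 was higher. Acsl5 changed by -0.77 ± 0.23 (SE, adjusted p = 0.0293) and Agpat3 by -0.48 ± 0.14 (SE, adjusted p = 0.0252). Without Mild_6887 or Advanced_6880 only 3 of the 7 were called. Acsl5 was lost without Mild_6886 or Mild_6887 (adjusted p = 0.0652 and 0.0762) or Advanced_6880 (-0.48, adjusted p = 0.0544) and from both groups alone (adjusted p = 0.0709). Agpat3 was lost without Mild_6886, Mild_6887, Advanced_6826 or Advanced_6904 (adjusted p = 0.067, 0.0652, 0.0772 and 0.0672) and on total counts (-0.32, adjusted p = 0.174).

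Advanced_6880 was low for most of the genes. It was the lowest of the 3 in 25 of the 33 genes in hepatocyte nuclei (75.8%, beside 24.7% of 13498 tested genes) and in 28 of 33 in whole liver nuclei (84.8%, beside 24.3% of 14129). Its hepatocyte library had a summed hepatocyte marker level of 7644 CPM and a cholangiocyte one of 1687 CPM, beside 11200 and 996 in Advanced_6826 and 9490 and 1396 in Advanced_6904. Among CDAHFD controls, Control_10113 was the highest of 4 in 15 of 33 genes (45.5%, beside 26.7%), with the highest hepatocyte marker sum of its group, 22600 CPM. The map of single mice shows both. The part of these marker levels in the values of the 2 mice was not tested.

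**Figure D4:**
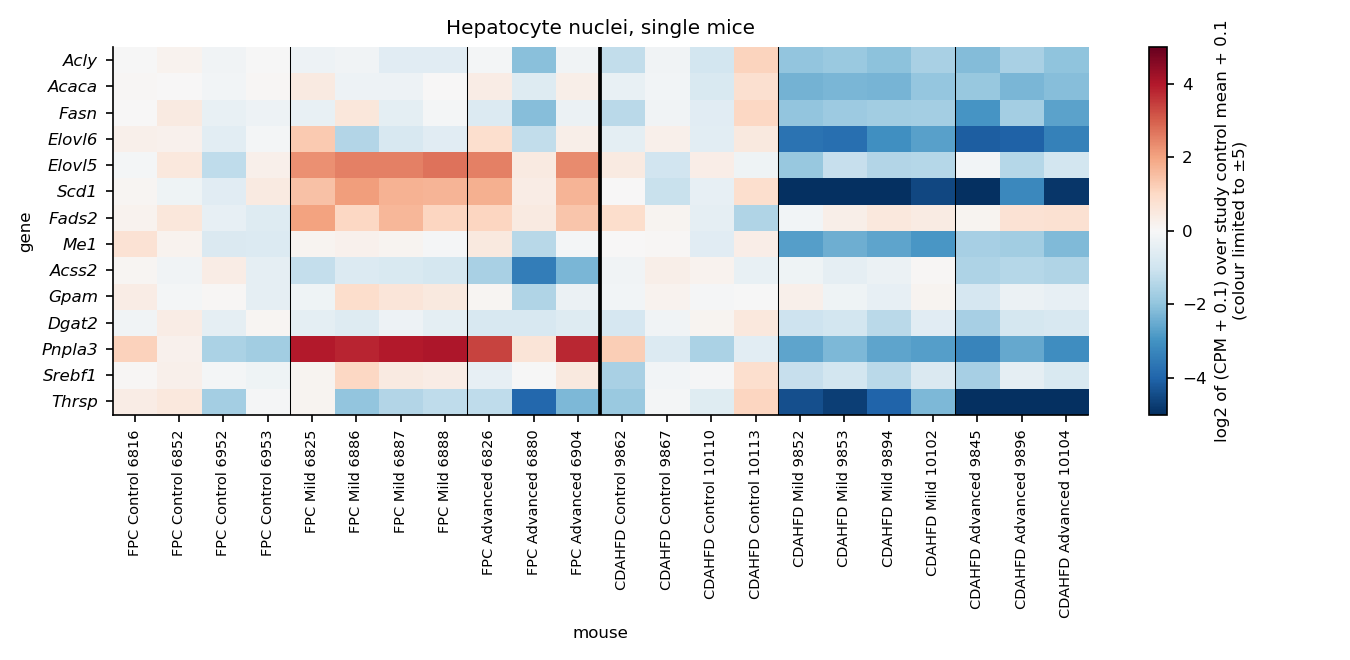
Log2 of CPM + 0.1 over the control mean of the study + 0.1 (colour, limited to ±5) for 14 genes (rows) in hepatocyte nuclei of the 22 mice (columns, grouped by study and stage). Advanced_6880 is bluer than the other advanced FPC mice over most genes, Control_10113 redder than the other CDAHFD controls for Acly, Fasn and Thrsp, and Scd1, Elovl6 and Thrsp are dark blue in CDAHFD mice.

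Whole liver nuclei gave a similar picture. More genes were called lower than in hepatocyte nuclei in advanced FPC mice and both CDAHFD stages, but not in mild FPC mice. On total counts advanced FPC mice had 3 lower in either fraction. The edgeR test of the difference between fractions in advanced disease, given further on, called 0 genes. In bulk nuclei, fewer cells of a type and less RNA per cell cannot be told apart, and hepatocyte markers were lower in whole liver of NASH mice (5996 to 8353 CPM in advanced FPC mice beside 13220 to 19490 in controls, and 5704 to 7629 beside 13020 to 21350 with CDAHFD). Advanced FPC mice had 19 of 33 genes called, 14 of them lower and 5 higher (beside 59.3%, 28% and 31.3% of all genes), with a median of -0.53. On total counts the split was 10 higher and 3 lower. Advanced CDAHFD mice had 26 called, 23 lower and 3 higher (beside 55.7%, 25.9% and 29.7%), with a median of -1.34, and 18 lower and 5 higher on total counts. Mild mice had 9 called, 7 higher and 2 lower, with FPC (beside 43.2%, 25% and 18.2%) and 25 called, 21 lower and 4 higher, with CDAHFD (beside 52.2%, 24.5% and 27.7%). Total counts called 15 genes in mild FPC mice, 13 of them higher. The share called in advanced FPC mice was near that of all genes. The FPC counts of higher genes include Pnpla5. Those of mild CDAHFD mice, and of advanced ones on total counts, include Mogat1. Both genes passed the filter only through NASH libraries, where they are higher. Advanced and mild mice differed in 10 genes with FPC (beside 22.3%), 9 of them lower (beside 8.98%) and 1 higher (beside 13.3%), and with CDAHFD in Acss2 alone (beside 1.88%). Without Advanced_6880, 5 were called with FPC.

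The same 5 genes rose in whole liver of advanced FPC mice as in hepatocyte nuclei, but the call of Elovl5, at 1.19 ± 0.42 (SE, adjusted p = 0.0305), held in 7 of 13 alternatives. It was lost without Control_6816 or Control_6952 (adjusted p = 0.0654 and 0.0564), without Advanced_6826 (0.86, adjusted p = 0.135) or Advanced_6904 (adjusted p = 0.099), without the filter on low counts (adjusted p = 0.0508) and from both groups alone (adjusted p = 0.0914). Scd1 had 428, 315, 263 and 445 CPM in whole liver of FPC controls and 2290, 646 and 851 in advanced mice, a change of 1.39 ± 0.38 (SE, adjusted p = 0.00745), or 0.57, adjusted p = 0.046 without Advanced_6826. Scd2 had 2.13, 2.25, 3.01 and 4.22 CPM and 56.8, 35.3 and 62.8, a change of 3.74 ± 0.27 (SE, adjusted p = 2.26e-07). Neither gene's groups overlap. Pnpla5 had 0 counts in whole liver of FPC controls, and 68 in mild and 33 in advanced mice, which was at least 25.6-fold and 14.9-fold higher against a floor of 3 counts over the group. In whole liver too it passed the filter for testing only through NASH libraries. Its calls there, and its place among the 5 genes, therefore add no support. With CDAHFD, Scd1 fell by 4.32 ± 0.62 (SE, adjusted p = 0.000204) and Fasn changed by -3.66 ± 0.59 (SE, adjusted p = 0.000421) in advanced mice. Mogat1 rose in whole liver of mild CDAHFD mice by 2.68 ± 0.65 (SE, adjusted p = 0.00381), from 0.0822, 0.2, 0.0534 and 0 CPM in controls to 0.757, 0.59, 0.627 and 0.928. The controls held 2, 5, 1 and 0 counts. Mogat1 passed the filter for this test only through NASH libraries, where it is higher, so the call adds no support to these levels.

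Hepatocyte and whole liver nuclei of one stage differed in few of these genes when mice were not paired. In FPC controls Scd2 alone was called (beside 17.5% of all genes, 16.2% lower and 1.35% higher), lower in hepatocyte nuclei at -1.33 ± 0.39 (SE, adjusted p = 0.0165), lost without Control_6852, Control_6952 or Control_6953 (adjusted p from 0.0647 to 0.0921). In mild FPC mice Agpat3 alone was called (beside 26.2%, 7.19% higher and 19% lower), higher by 0.34 ± 0.11 (SE, adjusted p = 0.0259). It was lost without Mild_6825, Mild_6886 or Mild_6887 (adjusted p from 0.0641 to 0.0881) and on total counts, where Scd2 was called lower instead (-0.97, adjusted p = 0.0255). In advanced FPC mice edgeR called 0 (beside 22.5%, 4.83% higher and 17.7% lower), with 2 at an unadjusted p under 0.05 and 1 by DESeq2. CDAHFD controls gave 2 genes, Tecr and Gpam, both higher (beside 31%, 14.6% higher and 16.4% lower). Neither was called on total counts, with RLE factors, by DESeq2 or without Control_9867 or Control_10113. Mild CDAHFD mice gave 13, 11 of them higher (beside 50.7%, 23.1% higher and 27.6% lower). Advanced CDAHFD mice gave 6, all higher (beside 43.2%, 20.1% higher and 23% lower), so the share called higher there was near that of all genes. Leaving out any 1 mouse gave 7 to 10 calls in mild CDAHFD mice and total counts 8, and advanced mice had 3 without Advanced_10104. Blocking on the mouse gave counts of 18, 26 and 20 in FPC controls, mild and advanced mice (beside 40.2%, 50.4% and 44.8% of all genes under the same block). Of these, 16, 25 and 19 were higher in hepatocyte nuclei (beside 21.4%, 27.6% and 22.2%). For CDAHFD they were 11, 20 and 14 (beside 43.2%, 58.5% and 51.4%), and 28, 27 and 27 with the whole liver libraries of Control_9862 and Control_9867 exchanged (beside 56.9%, 66.8% and 61.3%).

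Of the 13 genes called in mild CDAHFD mice, Scd1 and Scd2 were lower in hepatocyte nuclei and the other 11 higher. Among those not called, the mean CPM of Me1, Elovl2, Elovl5, Elovl6, Hsd17b12 and Pnpla3 in hepatocyte nuclei was 76.4% to 98.4% of that in whole liver nuclei. In mild CDAHFD mice Slc25a1 was higher in hepatocyte nuclei by 1.30 ± 0.22 (SE, adjusted p = 3.95e-05), Fasn by 1.43 ± 0.50 (SE, adjusted p = 0.0227) and Gpam by 0.88 ± 0.17 (SE, adjusted p = 0.000209). In the same mice Scd1 was lower there, at -1.72 ± 0.59 (SE, adjusted p = 0.0216), and Scd2, at -1.92 ± 0.42 (SE, adjusted p = 0.000641). Fasn was lost without any 1 of mice Mild_9852, Mild_9853, Mild_9894 and Mild_10102 (adjusted p from 0.0574 to 0.0867), and Scd1 without Mild_9852, Mild_9853 or Mild_9894 (adjusted p from 0.0625 to 0.0804). Whole liver nuclei had 12.6, 9.3, 12.7 and 14.6 CPM of Scd1 beside 2.91, 2.17, 3.11 and 5.61 in hepatocyte nuclei. Each whole liver value was above each hepatocyte value. For Fasn it was 38.9, 71, 64.7 and 70.3 CPM beside 134, 150.2, 159 and 159.5, the other way round and also without overlap.

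**Figure D5:**
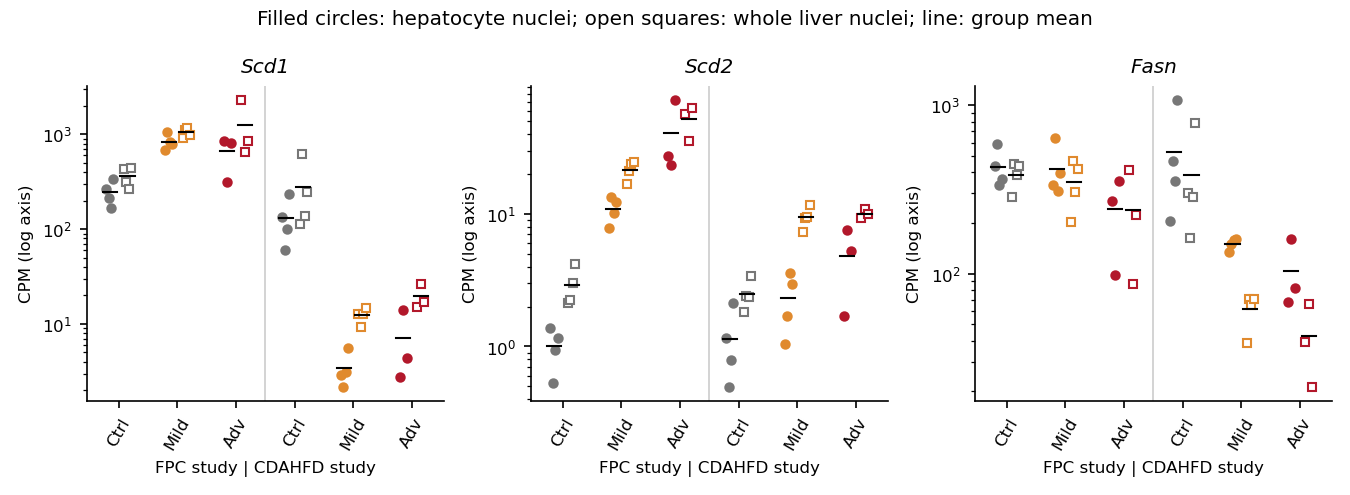
CPM on a log axis (y) of Scd1, Scd2 and Fasn in hepatocyte nuclei (filled circles) and whole liver nuclei (open squares) by group (x: control, mild and advanced of each study); points are mice and lines are group means. In mild CDAHFD mice Scd1 and Scd2 are higher in whole liver and Fasn is higher in hepatocyte nuclei.

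Whether the change with advanced disease differed between the fractions was also tested. With edgeR, 0 of 33 genes were called in the FPC study (0 at an unadjusted p under 0.05, beside 3.82% of all genes called) and 0 of 32 in the CDAHFD study (2 unadjusted, beside 10.2%). DESeq2 called 0 in both. Blocking on the mouse gave 2 and 3 called genes (beside 9.45% and 18% of all genes), and 9 in the CDAHFD study with both whole liver libraries exchanged (beside 29.6%). Slc25a1, at 0.29 ± 0.22 (SE, adjusted p = 0.284) in hepatocyte nuclei and -0.61 ± 0.21 (SE, adjusted p = 0.0255) in whole liver of advanced CDAHFD mice (lost there on total counts, without Control_9867 or Control_10110 and, at -0.39, adjusted p = 0.104, without Advanced_10104), had a difference of 0.80 ± 0.33 (SE, adjusted p = 0.132). That of Scd2 in the FPC study was 1.04 ± 0.52 (SE, adjusted p = 0.515).

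Of 78 other genes of lipid synthesis, its control and its reversal, 76 were tested, and 16 were higher and 31 lower in hepatocyte nuclei of advanced FPC mice (21.1% and 40.8%, beside 26.5% and 20.4% of all genes), with a median of -0.40. With CDAHFD 17 were higher and 34 lower (22.4% and 44.7%, beside 30.3% and 29.2% of all genes), with a median of -0.51. Among 27 regulators and sensors 1 was higher and 16 lower with FPC (3.7% and 59.3%, beside the same 26.5% and 20.4%), and 3 higher and 14 lower with CDAHFD (11.1% and 51.9%, beside 30.3% and 29.2%). Insig1, which holds SREBPs in the endoplasmic reticulum and is itself their target, was lower in both studies, at -2.44 ± 0.29 (SE, adjusted p = 1.78e-05) and -2.75 ± 0.37 (SE, adjusted p = 7.67e-05). Nr0b2, a repressor that bile acids induce, changed by -1.78 ± 0.54 and Mid1ip1, the partner of Thrsp, by -1.49 ± 0.37 with FPC (adjusted p = 0.0184 and 0.00468). With CDAHFD the insulin receptor substrate Irs1 changed by -1.56 ± 0.26 and Pparg, a nuclear receptor that promotes fat storage, by 1.52 ± 0.23 (adjusted p = 0.000297 and 0.00016).

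The sugar and NADPH genes held called changes both ways. Of 14, 4 were higher and 5 lower with FPC (28.6% and 35.7%, beside 26.5% and 20.4% of all genes), and 4 higher and 8 lower with CDAHFD (28.6% and 57.1%, beside 30.3% and 29.2%). The shares called higher were near those of all genes. Khk, fructokinase, and Pklr, liver pyruvate kinase, were lower with CDAHFD, at -2.46 ± 0.43 (SE, adjusted p = 0.000549) and -2.45 ± 0.44 (SE, adjusted p = 0.000637). The mitochondrial malic enzyme Me2, from 1.12 ± 0.238 CPM (SD, n = 4) in controls to 15.2 ± 5.34 (SD, n = 3) in advanced FPC mice, rose by 3.35 ± 0.25 (SE, adjusted p = 3.11e-07) with FPC and 3.29 ± 0.28 (SE, adjusted p = 2.58e-06) with CDAHFD. Me3, another mitochondrial malic enzyme, and G6pdx, which feeds the pentose phosphate pathway, rose with FPC by 3.15 ± 0.25 and 2.31 ± 0.32 (adjusted p = 4.8e-07 and 6.55e-05), and with CDAHFD by 2.22 ± 0.53 and 2.27 ± 0.52 (adjusted p = 0.00336 and 0.00266). With CDAHFD G6pdx passed the filter for testing only through NASH libraries, where it is higher, so that call adds no support. Me2, Me3 and G6pdx were low in control hepatocyte nuclei, and the marker shifts given above occurred in the same libraries. Their part was not tested.

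Of 24 other isoforms of the synthetic steps 22 were tested, and 10 were higher and 4 lower with FPC (45.5% and 18.2%, beside 26.5% and 20.4% of all genes) and 8 higher and 6 lower with CDAHFD (36.4% and 27.3%, beside 30.3% and 29.2%). The shares called lower were near those of all genes. Elovl7, an elongase of long saturated chains, went from 0.547 ± 0.128 CPM (SD, n = 4) to 45.8 ± 9.82 (SD, n = 3) in FPC mice, a change of 5.98 ± 0.21 (SE, adjusted p = 3.03e-09), and from 0.735 ± 0.497 to 20.3 ± 3.91 CPM with CDAHFD, a change of 4.36 ± 0.38 (SE, adjusted p = 2.92e-06). Elovl3, an elongase known to vary with the day and with androgens, was lower, at -4.86 ± 1.25 (SE, adjusted p = 0.00859) and -5.27 ± 0.93 (SE, adjusted p = 0.000614), from control levels of 26.2 ± 37.7 and 24.2 ± 23.7 CPM (SD, n = 4) that varied as much as their mean. Gpat3, a glycerol-phosphate acyltransferase of the endoplasmic reticulum, rose with CDAHFD by 4.49 ± 0.19 (SE, adjusted p = 2.81e-08), from 3.14 ± 0.404 to 100 ± 25.4 CPM, while Gpam fell. It rose with FPC too, by 3.04 ± 0.39 (SE, adjusted p = 4.33e-05). Acss1, the mitochondrial acetyl-CoA synthetase, rose by 3.96 ± 0.41 (SE, adjusted p = 4.79e-06) with FPC and 3.3 ± 0.53 (SE, adjusted p = 0.000232) with CDAHFD, while Acss2 fell in both. Its mean level stayed low, from 0.28 to 5.9 CPM with FPC and from 0.18 to 2.64 CPM with CDAHFD. Acss1 in both studies, and Elovl7 with CDAHFD, passed the filter for testing only through NASH libraries, where they are higher. Those calls, which the counts above include, add no support to the levels. Acss1 and Elovl7 were near the floor in control hepatocyte nuclei, and the marker shifts given above occurred in the same libraries. The part of those shifts was not tested.

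Of 13 genes of triglyceride breakdown, 1 was higher and 6 lower with FPC (7.69% and 46.2%, beside 26.5% and 20.4% of all genes) and 2 higher and 6 lower with CDAHFD (15.4% and 46.2%, beside 30.3% and 29.2%). Lpl, lipoprotein lipase, rose by 4.95 ± 0.29 (SE, adjusted p = 3.49e-08) and 2.94 ± 0.39 (SE, adjusted p = 5.98e-05). Its mean level went from 0.833 to 34.4 CPM with FPC and from 1.5 to 16 CPM with CDAHFD. The marker shifts given above, with those of recruited macrophages, occurred in the same libraries, and their part was not tested. The carboxylesterase Ces3b was lower, at -3.26 ± 1.05 (SE, adjusted p = 0.026) and -3.07 ± 1.14 (SE, adjusted p = 0.0385). With CDAHFD its groups overlap, at 99.3 to 2403 CPM in controls and 66.8 to 215.8 CPM in advanced mice. Ces3a changed with FPC by -1.95 ± 0.18 (adjusted p = 1.54e-06) and Ces1f with CDAHFD by -1.96 ± 0.23 (adjusted p = 2.34e-05). Reads of the carboxylesterases, which are near copies of each other, may have been divided among them.

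The authors' deposited table of hepatocyte comparisons holds all 33 genes. At an adjusted p under 0.05, the authors' deposited table calls 11 in advanced and 11 in mild FPC mice against controls, and 25 and 23 with CDAHFD. Of the edgeR calls made here, 9 of 10, 11 of 11, 24 of 24 and 20 of 22 are in the authors' deposited table with the same sign. The advanced FPC call absent there is Scd1 (1.01, authors' adjusted p = 0.075). Those absent in mild CDAHFD mice are Acss2 and Tecr (authors' adjusted p = 0.086 and 0.0814). In advanced FPC mice the authors' split is 4 higher and 7 lower, with Gpam and Tecr also lower, beside 5 and 5 here.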

How the data were processed

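Counts per RefSeq transcript identifier for 44 libraries were deposited as raw counts, over gene bodies with introns, and were made by the authors from total nuclear RNA prepared with a stranded kit. The submitters' processing notes name STAR 2.4.2a, DESeq2 1.24.0 and mm10. The counting tool and its strand setting are not given in the sources used here. The authors' deposited table of hepatocyte comparisons gives log2 fold changes and adjusted p-values, with gene positions and lengths, for 13147 genes. It was used for lengths, positions and a comparison of calls.

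CPM were computed from library totals, and log2 fold changes with edgeR 4.0.16 in R 4.3.3 (TMM scaling, filterByExpr, robust quasi-likelihood F-test). P-values were adjusted by Benjamini-Hochberg over all genes tested, and a call means an adjusted p under 0.05. The SE is the size of the log2 fold change over the square root of F. The 3 groups of a study and fraction were fitted together, hepatocyte and whole liver libraries of a study together for fractions, and the 22 hepatocyte libraries together for the difference between studies. The fit was tested on simulated counts. The labels give separate mice, which are the replicates, and mouse numbers are shared between fractions only. Pairing was checked over 12759 genes on log2 (CPM + 1). The 2 libraries of a mouse correlated above 0.1 in 20 of 22 mice, so the mouse as a block is an alternative for comparisons of fractions.

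The 33 genes and the other lists were chosen with earlier results of these data known. Values per mouse are given for genes called in advanced mice of either study with a log2 fold change of at least 1 in size, and for Fasn, Scd1, Srebf1 and Dgat2. Of the other lists the 3 called genes with the largest changes are named. Mogat1 was added after its values were seen. Alternatives were RLE factors, DESeq2 1.42.0, other filters (none, or a mean CPM of at least 1), both groups alone, and each library left out. Total counts as scaling and the block with 2 libraries exchanged were added after seeing the data. No library was left out of the results given first.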

Additional observations from a re-analysis of the deposited data

Results flagged for a closer look

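Single mice stood apart from the others of their group in hepatocyte nuclei for 4 genes, where the gap to the nearest mouse, as a share of the range of the group, exceeded Dixon's 95% limit for 4 samples. Chance gives this in about 1 of 20 groups, and 76 groups of 4 were examined. Acacb was at 340.7 CPM in CDAHFD Control_9862, Elovl6 at 1074 CPM in FPC Mild_6825, Lpin1 at 136.1 CPM in FPC Control_6953, and Thrsp at 7.166 CPM in CDAHFD Mild_10102.

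The change from controls differed between the studies by the edgeR test of the difference itself (log2 CDAHFD change minus FPC change, adjusted p under 0.05), with 7 weeks of feeding in one study and 20 in the other. In advanced mice it was negative for Me1 at -1.8, Acaca at -2.23, Elovl5 at -2.8, Elovl6 at -4.08, Scd1 at -5.74, Scd2 at -3.32, Pnpla3 at -6.23, Pnpla5 at -8.78 and Thrsp at -5.14, and positive for Slc25a1 at 1.04 and Elovl1 at 0.89. In mild mice it was negative for Me1 at -2.84, Acaca at -2.29, Elovl2 at -2.21, Elovl5 at -3.99, Elovl6 at -3.35, Hsd17b12 at -1.07, Scd1 at -7.07, Scd2 at -2.48, Acsl5 at -1.16, Agpat2 at -1.64, Pnpla3 at -6.64, Pnpla5 at -9.35 and Srebf1 at -1.59, and positive for Elovl1 at 0.92 and Lpin3 at 0.82. The Pnpla5 values are against groups with 0 counts, depend on the prior count and are no bound. Pnpla5 passed the filter of this fit only through FPC NASH libraries. In advanced mice the call of Slc25a1 held in 7 of 19 alternatives, that of Thrsp in 13, of Me1 in 16 and of Elovl1 in 17. In mild mice the call of Srebf1 held in 8 of 21 alternatives, that of Lpin3 in 10 and of Scd2 in 16. The calls of Slc25a1, Srebf1 and Lpin3 were thus lost in most alternatives, with adjusted p up to 0.17, 0.0979 and 0.0791. Elovl1 in advanced mice was lost without FPC Advanced_6826 (0.75, adjusted p = 0.0608) or CDAHFD Advanced_9896 (0.72, adjusted p = 0.0699).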

How the results depend on the processing

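Counts of called genes stayed within 1.5 times of the given ones in the comparisons with controls, except for 15 genes on total counts in whole liver of mild FPC mice. Between advanced and mild CDAHFD mice, hepatocyte nuclei gave 2 on total counts, 4 with DESeq2 and 3 from both groups alone, and whole liver 4 with DESeq2 and 2 from both groups alone. Between fractions, the replicate block gave 18, 26 and 20 genes in FPC controls, mild and advanced mice, and 11, 20 and 14 with CDAHFD, or 28, 27 and 27 with the whole liver libraries of Control_9862 and Control_9867 exchanged. For the difference of the disease change between fractions the block gave 2 (FPC) and 3 (CDAHFD), or 9 exchanged. RLE factors, no filter and DESeq2 gave 2, 0 and 2 in mild and 1, 1 and 1 in advanced FPC mice. In CDAHFD controls RLE factors, the mean CPM filter, total counts and DESeq2 each gave 0, and in mild CDAHFD mice total counts gave 8. Leaving out each library in turn gave 3 to 9 genes between hepatocyte nuclei of advanced and mild FPC mice and 1 to 2 with CDAHFD, and 5 to 13 and 1 to 2 in whole liver. Between fractions it gave 0 to 1, 0 to 1 and 0 to 2 with FPC and 1 to 3, 7 to 10 and 3 to 7 with CDAHFD (controls, mild, advanced), and 7 to 16 for the studies' difference in advanced mice.

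Of 2977 alternative values for 215 results of single genes, 2702 kept direction and side of the threshold, 273 were no longer called, and 2 changed sign, both on total counts. These were Srebf1 in advanced FPC mice at 0.0691 and Tecr in mild CDAHFD mice at 0.0588. Depth limits Pnpla5, Thrsp with CDAHFD and Mogat1, which rest on few counts.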
